A study of Mus musculus with 10 samples.

Results

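The vascular endothelial growth factor (VEGF) genes were followed across the cell classes of the embryonic mouse pancreas. They were 4 ligands (*Vegfa*, *Vegfb*, *Vegfc* and *Figf*, the older symbol of *Vegfd*), 3 receptor tyrosine kinases (*Kdr*, *Flt1* and *Flt4*) and 2 neuropilins (*Nrp1* and *Nrp2*). These 9 genes were chosen by name, all 9 were found in every matrix, and the matrices shared 27716 genes. Single-cell 10x libraries had been made from pools of pancreata of 3 embryonic stages (E12.5, then E14.5, then E17.5). There were 4 libraries of live Swiss Webster cells with the version 1 kit, of which 2 (batches 1 and 2) were from E14.5, and 3 Swiss Webster libraries with the version 2 kit, 1 per stage. By their titles, the version 1 libraries of E12.5 and E17.5 were also of batch 2, which the study collected on another day than batch 1. The version 2 stages were each processed on a day of their own. The version 2 cells had been sorted as CD140a-negative, which removes cells with the mesenchymal surface protein Pdgfra, so their mesenchymal cells were those that the sort had let through. The remaining library was a version 2 library from *Fev-Cre; ROSA26mTmG* embryos at E14.5, on another strain background. In these embryos the *Fev* promoter drives Cre and recombined cells turn from TdTomato to GFP, and GFP+ cells had been mixed with TdTomato+/GFP- cells. The 8 libraries thus differed in stage, in kit with its sort, in batch or day, and in strain.

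VEGF ligands are secreted proteins that guide the growth of vessels. Vegfa binds the kinases Kdr and Flt1, of which Kdr carries most of the signal for endothelial growth and Flt1 also acts as a decoy that holds ligand back. Vegfb binds Flt1, whereas Vegfc and the protein of *Figf* bind Flt4, the main receptor of lymphatic endothelium, and cleaved Vegfc also binds Kdr. Neuropilins are co-receptors without a kinase that also bind class 3 semaphorins, which are guidance cues of axons and vessels. In the pancreas, endothelial cells lie next to the endocrine cells, and Vegfa from islet cells is known to draw in their dense capillaries.

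Clusters were named by marker genes, and none of the 9 members was used for clustering. Of 57982 cells, 715 were endothelial-like, 7630 endocrine-like, 7992 acinar-like, 7864 ductal-like, 12684 mesenchymal-like, 1088 vascular smooth muscle (VSM)-like and 5964 mesothelial-like. Marker genes were highest in the class they name for 16 of 16 endothelial, 18 of 18 endocrine, 14 of 15 acinar, 12 of 16 ductal, 9 of 13 mesenchymal, 13 of 13 VSM and 10 of 11 mesothelial markers. Endothelial-like cells numbered 24 to 220 per library. The matrices held 15671934 to 127151680 UMIs (unique molecular identifiers, counted as captured transcripts), and the kept cells had a median of 2952 to 11783 UMIs. Haemoglobin genes took 0.0128% to 60.9% of UMIs per matrix, with the highest share in version 1 E17.5. At most 1.79% of the barcodes of the smaller library were shared by any 2 libraries.

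Levels are given in CPM, the UMI count of a gene scaled to the total UMIs of a class in a library, and classes with fewer than 20 cells in a library were left out. This removed mesenchymal-like cells from version 2 E17.5, which held 5. A level can be compared between classes for the same gene, but not between genes, since UMIs were counted at the 3′ end and genes differ in how well they are captured. As a share of all UMIs, a level is lowered where a few genes take many of the UMIs, as beta cell markers did in beta-like cells. Where a class had no UMI of a gene, 3 UMIs were taken as the limit, which came to between 0.0938 and 33.8 CPM per class and library. Intervals of counts cover counting error only. Differences were tested with edgeR on UMI sums per library and class, and a gene was called where its Benjamini-Hochberg adjusted p lay under 0.05 and its change reached 2-fold. Each library was 1 pool of embryos. Classes were compared within libraries, so p-values there measure how a difference varied over libraries of unlike stage, kit and strain. Between stages, only the E14.5 version 1 batches shared both stage and kit. Those p-values therefore rest largely on how far the kits disagreed, and not on replicate pools of each stage.

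Among the ligands, *Vegfa*, the main endothelial growth and permeability factor, was highest in ductal-like and endocrine-like cells. In ductal-like cells its lowest, median and highest levels over 8 libraries were 12.8, 27.0 and 46.2 CPM. In endocrine-like cells they were 14.53, 32.3 and 37.7 CPM. These epithelial classes overlapped in range, and the ductal-like level was the higher in 5 of 8 libraries. *Vegfa* did not pass the test between endocrine-like and ductal-like cells (log2 fold change -0.03 ± 0.10 SE, adjusted p = 0.902 by edgeR), and the sign of this difference turned under several other settings.

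Acinar-like cells, which make the digestive enzymes, had less *Vegfa* than ductal-like cells in 8 of 8 libraries. Their levels were 0 CPM at the lowest, 6.09 at the median and 15.6 at the highest, and the log2 fold change against ductal-like cells was -1.68 ± 0.23 SE (adjusted p = 0.00012). In that comparison 2 members were called, *Vegfa* (lower) and *Vegfb* (higher), where 16.2% of all genes tested were. Mesenchymal-like cells lay between 6.05 and 17.4 CPM with a median of 7.17, below ductal-like cells in 7 of 7 libraries (log2 fold change -1.38 ± 0.18 SE, adjusted p = 4.2e-05). *Vegfa* was lower still in mesothelial-like cells, the outer lining of the organ, at 0, 2.94 and 4.77 CPM, and it differed from mesenchymal-like cells by -1.45 ± 0.28 SE on the log2 scale (adjusted p = 0.00211).

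Endothelial-like cells had few UMIs of *Vegfa*. In 5 of 8 libraries none was seen, where 3 UMIs would have come to 9.03 to 29.7 CPM, and the others had 3.16, 5.84 and 6.54 CPM. Against mesenchymal-like cells the log2 fold change was -1.82 ± 0.57 SE (adjusted p = 0.0186), on 8 UMIs in the endothelial-like sums of 7 libraries, all 8 from version 2 E12.5 and version 2 E14.5. The libraries at 0 cannot show a lower level by themselves. The *Vegfa* call was lost with no replicate block. VSM-like cells ranged from 0 to 33.8 CPM, and the highest of these values was 3 UMIs in the 30 cells of version 1 E14.5 batch 1.

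**Figure D1:**
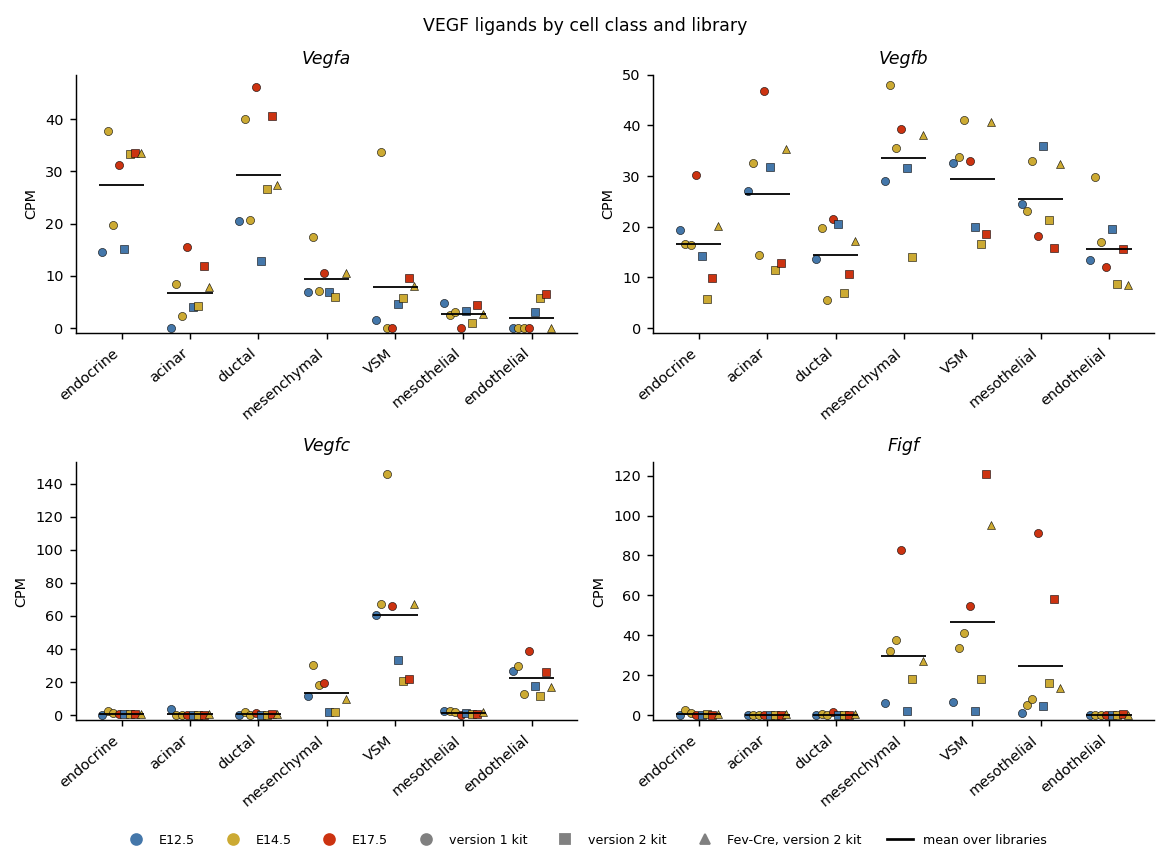
Level of each VEGF ligand gene in CPM (linear y axes that differ between panels) in the 7 cell classes; each point is 1 library, its colour the stage and its shape the kit, and the bar is the mean over libraries. *Vegfa* was highest in ductal-like and endocrine-like cells, *Vegfc* in VSM-like cells, and *Figf* in VSM-like, mesenchymal-like and mesothelial-like cells.

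Within the endocrine lineage, *Vegfa* was seen in every subclass with 20 or more cells. Endocrine progenitors named by *Neurog3* (Neurog3+-like) had a mean of 28.5 ± 10.5 CPM (SD, n = 8), Fev+-like cells 24.1 ± 11.1 (n = 6), alpha-like cells 23.2 ± 9.01 (n = 8), beta-like cells 43.8 ± 24.8 (n = 7) and delta-like cells 34.8 ± 4.49 (n = 4). Epsilon-like cells had 5.36, 25.5 and 39.95 CPM in 3 libraries. All these ranges overlapped.

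Beta-like cells, which make insulin, had more *Vegfa* than the glucagon-making alpha-like cells (log2 fold change 1.05 ± 0.20 SE, adjusted p = 0.00279 by edgeR with library as a block). It was the 1 member called in this comparison, where 6.35% of genes were. At E14.5 the beta-like level was the higher in each of 4 libraries. These were 84.8 against 27.3 CPM in version 1 batch 1, 29.1 against 14.7 in batch 2, 45.4 against 15.8 in version 2, and 67.7 against 28.2 in Fev-Cre. At the other stages the CPM of the classes lay close together, with 11.6 against 14.7 CPM in version 2 E12.5, 35.4 against 37.3 in version 1 E17.5, and 32.6 against 31.7 in version 2 E17.5. However, 11 beta cell markers, insulin genes among them, took 8306 to 449270 CPM in beta-like sums and 2409 to 14890 CPM in alpha-like sums. This lowers the CPM of other genes in beta-like cells. The edgeR test scales for such shifts (TMM), whereas these CPM do not. Whether the difference depended on stage was not tested. The call was lost without version 2 E14.5 (log2 fold change 0.90) and without Fev-Cre (0.90), and with no replicate block (1.06, adjusted p = 0.0656 by edgeR). The highest value, in version 1 batch 1, was 19 UMIs (95% Poisson interval 51.0 to 132 CPM).

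Against Neurog3+-like cells, *Vegfa* in beta-like cells differed by 0.86 ± 0.24 SE on the log2 scale (adjusted p = 0.0105), under the 2-fold threshold. *Vegfb* was called higher there (1.02 ± 0.37 SE, adjusted p = 0.0402) and *Nrp1* lower (-1.33 ± 0.42 SE, adjusted p = 0.0191), among 22.8% of genes called. The *Vegfb* call was lost without version 1 E14.5 batch 2 (1.03) and without version 1 E17.5 (1.00). Both calls were lost without version 2 E14.5, version 2 E17.5 or Fev-Cre, when 0 members were called, and at Leiden resolution 2, where clusters are finer. The *Vegfb* call was also lost with DESeq2 and with no replicate block. Of 12 tested genes that respond to low oxygen, 0 were called between beta-like and alpha-like cells, with a median log2 fold change of 0.10, against -0.00059 over all genes. Under the 2-fold threshold, *Bnip3*, *Ndrg1* and *P4ha1* were lower in beta-like cells (-0.50, -0.80 and -0.47, adjusted p = 0.00862, 0.0125 and 0.0477 by edgeR) and *Ero1l* was higher (0.59, adjusted p = 0.0277), 4 genes named after their values were seen.

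**Figure D2:**
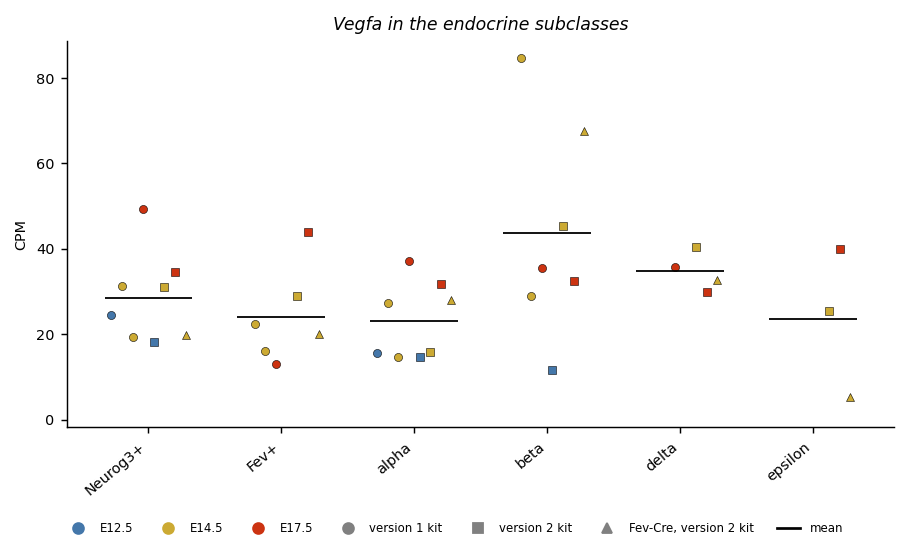
*Vegfa* level in CPM (linear y axis) in the endocrine subclasses; each point is 1 library, coloured by stage and shaped by kit, and the bar is the mean. Beta-like points at E14.5 reach 84.8 CPM, while the subclasses overlap at E12.5 and E17.5.

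*Vegfa* was higher at E17.5 than at E12.5 in the 3 epithelial classes. In endocrine-like cells, version 1 libraries went from 14.53 CPM at E12.5 to 31.2 at E17.5, and version 2 libraries from 15.1 to 33.4. The Swiss Webster libraries of E14.5 held 37.7, 19.7 and 33.4 CPM, the highest of which lay above both E17.5 libraries. The log2 fold change between E17.5 and E12.5, with kit as a term, was 1.504 ± 0.35 SE (adjusted p = 0.0207), and *Vegfa* was the 1 member called there among 7.24% of genes. The subclasses that make up this class differed between the stages, with 42 beta-like and 349 Neurog3+-like cells in version 2 E12.5 against 619 and 273 in version 2 E17.5. Within subclasses of version 2 the levels went from 14.7 to 31.7 CPM in alpha-like, from 11.6 (4 UMIs) to 32.6 in beta-like and from 18.2 to 34.6 in Neurog3+-like cells, which were not tested by stage.

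In ductal-like cells *Vegfa* went from 20.5 to 46.2 CPM in version 1 and from 12.8 to 40.7 in version 2, with 40.0003, 20.7 and 26.6 at E14.5 (log2 fold change 1.65 ± 0.38 SE, adjusted p = 0.0207). In acinar-like cells of version 1 it went from 0 UMIs, where 3 UMIs would have come to 5.42 CPM, to 2 UMIs in 39 cells (15.6 CPM, 95% Poisson interval 1.89 to 56.3). In version 2 it went from 3.96 to 11.9 CPM, with 8.52, 2.42 and 4.30 at E14.5 (2.64 ± 0.68 SE, adjusted p = 0.00691). Members called were 2 in each of these comparisons, among 6.54% of genes in ductal-like and 19.2% in acinar-like cells. *Vegfa* did not pass the test in mesenchymal-like or mesothelial-like cells, and whether classes differed in their change was not tested.

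The endocrine call was lost without version 2 E12.5 (1.21) or version 2 E17.5 (1.40), the ductal call without the same libraries (1.31 and 1.61), and the acinar call without version 2 E17.5 (2.52) or with finer clusters (1.79). All 3 calls were lost with no kit term (1.45, 1.61 and 2.67 in endocrine-like, ductal-like and acinar-like cells). Dissociation had taken 10 min at E12.5, 15 min at E14.5 and 30 min at E17.5, so its effect and that of stage cannot be told apart. The matrices also differed in haemoglobin, with 13.1% and 4.71% of UMIs at E12.5 against 60.9% and 31.8% at E17.5.

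Genes that respond to low oxygen were counted beside these stage comparisons, since *Vegfa* is one of the best known of them. Of 13 such genes, 6 of 13 tested were called higher at E17.5 in acinar-like cells, 4 of 13 in ductal-like and 0 of 12 in endocrine-like cells, and none lower. Their median log2 fold change was 1.28, 0.77 and 0.13, against -0.04, 0.02 and 0.02 over all genes tested. Of all genes tested, 19.2%, 6.54% and 7.24% were called in these classes, in either direction. *Car9*, a carbonic anhydrase, rose by 2.74 ± 0.34 SE in acinar-like cells (adjusted p = 1.3e-06) and by 3.26 ± 0.45 SE in ductal-like cells (adjusted p = 0.00084). *Bnip3*, which takes part in mitophagy, rose by 1.79 ± 0.39 SE and 1.76 ± 0.37 SE (adjusted p = 0.00166 and 0.011). *Egln3*, an oxygen-sensing prolyl hydroxylase from a separate list, rose by 4.77 ± 0.56 SE in acinar-like and 4.33 ± 0.55 SE in ductal-like cells (adjusted p = 5.6e-07 and 0.00041). Of the 7 tested genes of that list, 3 were called higher in acinar-like and 1 in ductal-like cells, with medians of 1.47 and 0.35. The part of oxygen or of dissociation time in these values and in the rise of *Vegfa* was not tested.

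*Vegfb*, a ligand of Flt1, was found in all 7 classes. Its mean level lay between 14.505 ± 6.23 CPM (SD, n = 8) in ductal-like and 33.6 ± 10.5 CPM (n = 7) in mesenchymal-like cells, and neighbours in the order of classes overlapped throughout. Within libraries, however, it was higher in acinar-like than in ductal-like cells in 8 of 8 (log2 fold change 1.15 ± 0.13 SE, adjusted p = 2.9e-05). It was also higher in mesenchymal-like than in ductal-like cells in 7 of 7 (1.15 ± 0.19 SE, adjusted p = 0.00036), which fell to 0.98 and under the 2-fold threshold without version 1 E14.5 batch 2. Endothelial-like cells had less than mesenchymal-like cells in 7 of 7 libraries (-1.03 ± 0.25 SE, adjusted p = 0.00311), a call that was lost without version 1 E17.5 (-0.91) or Fev-Cre (-0.95), with doublets kept (-0.93) and with finer clusters (-0.97). *Vegfb* passed the test in none of the 5 stage comparisons in which it had enough counts.

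*Vegfc*, a ligand of Flt4, was highest in VSM-like cells, a class named by markers of vascular smooth muscle and pericytes, cell types of the vessel wall. In version 2 E17.5, 339 of its 363 cells lay in a cluster led by *Lum*, *Col4a1*, *Postn* and *Acta2*. *Lum* and *Postn* were on the mesenchymal marker list, so the vessel wall name is uncertain there. A cluster of 20 cells led by *Mylk*, *Cnn1*, *Actg2* and *Myh11* had 0, 33.2, 0, 59.7 and 143 CPM of *Vegfc*, *Figf*, *Flt1*, *Nrp1* and *Nrp2*. The cluster of 339 had 23.7, 129, 27.3, 326 and 15.9 CPM. The lowest, median and highest levels in VSM-like cells were 20.7, 63.1 and 146 CPM, and this class was above all others in 7 of 8 libraries. Endothelial-like cells followed at 11.7, 22.0 and 39.1 CPM, and then mesenchymal-like cells at 2.02, 11.4 and 30.3 CPM. The ranges of these neighbours overlapped, and with finer clusters the highest VSM-like value, in version 1 E14.5 batch 2, fell from 146 to 81.6 CPM. In the remaining classes the means lay between 0.656 and 1.46 CPM.

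Endothelial-like cells had more *Vegfc* than mesenchymal-like cells (1.23 ± 0.40 SE, adjusted p = 0.0232), in 5 of 7 libraries. This call was lost without version 2 E12.5 (0.68), with finer clusters (0.96) and with no replicate block (0.75). Mesenchymal-like cells had more than ductal-like cells in 7 of 7 libraries (3.95 ± 0.31 SE, adjusted p = 7.1e-07), and mesothelial-like cells less than mesenchymal-like cells in 7 of 7 (-2.21 ± 0.34 SE, adjusted p = 0.000595), a call lost with no replicate block.

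*Figf*, which encodes the other ligand of Flt4, was stromal. Its lowest, median and highest levels were 2.00, 37.5 and 121 CPM in VSM-like cells, 2.03, 27.0 and 83.0 CPM in mesenchymal-like cells, and 1.19, 10.8 and 91.4 CPM in mesothelial-like cells. With finer clusters the VSM-like level fell from 121 to 38.4 CPM in version 2 E17.5, from 33.8 to 16.9 and from 41.2 to 14.96 CPM in batches 1 and 2 of version 1 E14.5, and from 54.9 to 36.6 CPM in version 1 E17.5, so that it lay below mesenchymal-like cells in both batches. The ranges of the 3 classes overlapped, and *Figf* did not pass the test between mesothelial-like and mesenchymal-like cells (-0.86 ± 0.38 SE, adjusted p = 0.109). Means in the epithelial classes were 0.111 to 0.732 CPM, and mesenchymal-like exceeded ductal-like cells by 6.54 ± 0.38 SE (adjusted p = 6.5e-08, 7 of 7 libraries). In the 7 libraries of the comparison with endothelial-like cells, 0 UMIs of *Figf* were found in 3297210 endothelial-like UMIs against 1315 in mesenchymal-like cells. No fold is given, since the libraries contributed unlike shares to the 2 classes.

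*Figf* rose with stage in mesothelial-like and mesenchymal-like cells. In both classes, and in VSM-like cells of version 2, most cells of E17.5 lay in clusters that held few cells of E12.5, so the stages of a class differ in their clusters as well. Mesothelial-like cells went from 1.19 CPM at E12.5 to 91.4 at E17.5 in version 1, with 5.15 and 8.03 at E14.5. In version 2 they went from 4.44 to 58.2, with 16.2 at E14.5. Both E17.5 libraries lay above the other 5, and the log2 fold change from E12.5 was 4.36 ± 0.51 SE (adjusted p = 1.8e-05). Among all genes tested in mesothelial-like cells 18.2% were called and the median log2 fold change was -0.15, and 2 members were called, *Figf* and *Kdr*.

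In mesenchymal-like cells *Figf* went from 6.27 to 83.0 CPM in version 1, with 32.2 and 37.8 at E14.5, and from 2.03 at E12.5 to 18.1 at E14.5 in version 2. The log2 fold change between E17.5 and E12.5 was 4.08 ± 0.44 SE (adjusted p = 5.6e-06), with 7.77% of genes and 2 members called. It rests on 1 E17.5 library. VSM-like cells were not fitted by stage, and their values of 6.52 and 2.00 CPM at E12.5 and of 54.9 and 121 CPM at E17.5 were in the same order in each kit. In version 2 the VSM-like cells of E12.5 lay in a cluster led by *Fam162b* and *Ebf1* (11.8 CPM of *Figf*), and 339 of the 363 of E17.5 in one led by *Lum*, *Col4a1*, *Postn* and *Acta2*. With finer clusters, version 2 E17.5 had 236 VSM-like and 164 mesenchymal-like cells in place of 363 and 5.

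Of 13 oxygen-responsive genes, 9 were called higher at E17.5 than at E12.5 in mesothelial-like cells and 4 were not called. The median log2 fold change of the 13 was 1.31 against -0.15 over all genes, of which 18.2% were called. *Ndrg1*, a stress-response gene, rose by 3.52 ± 0.36 SE (adjusted p = 5.5e-06) and *P4ha1*, a collagen prolyl hydroxylase, by 2.20 ± 0.28 SE (adjusted p = 3.5e-05). In mesenchymal-like cells 3 of 13 were called, all higher, with a median of 0.86 against -0.08 over all genes, of which 7.77% were called. Haemoglobin genes took 0.0867% and 0.135% of the UMIs of mesothelial-like cells at E12.5 and 0.235% and 0.687% at E17.5. The part of oxygen or of dissociation time in these changes was not tested.

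**Figure D3:**
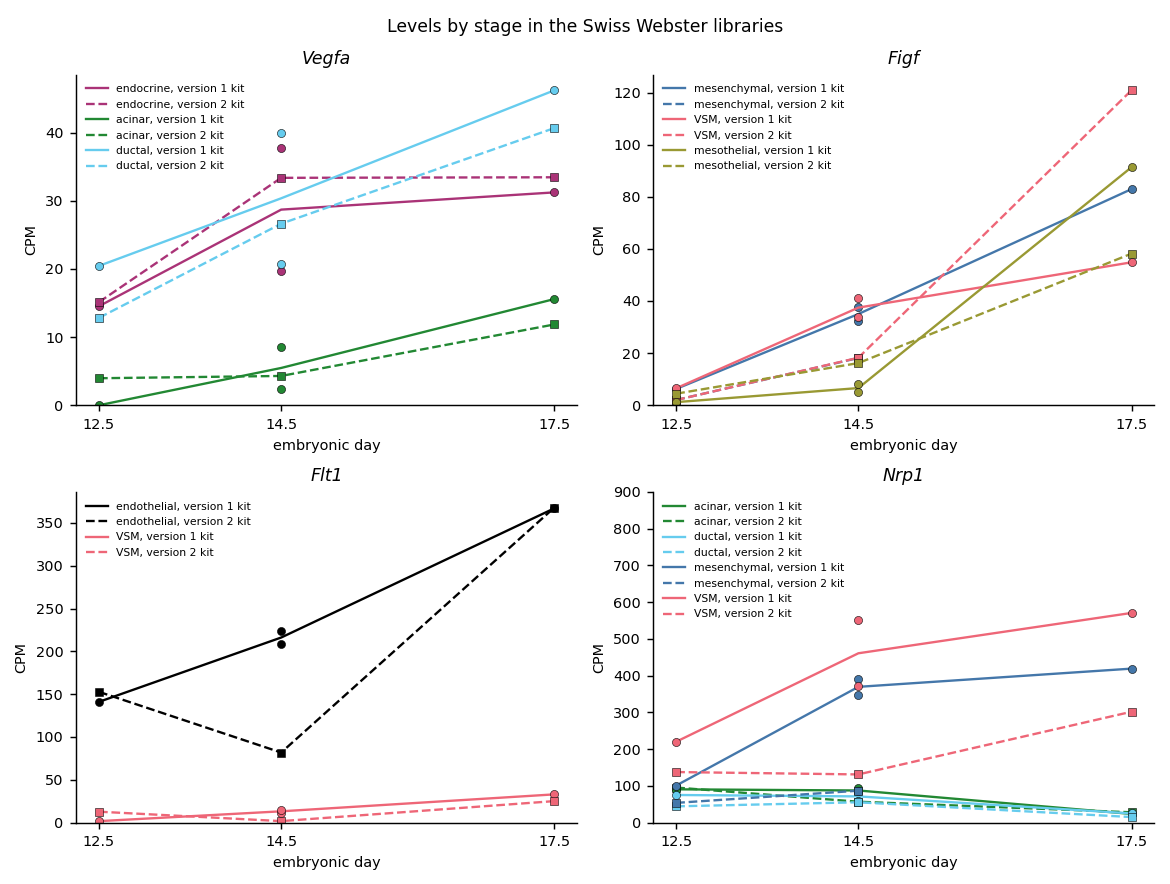
Levels in CPM (linear y axes that differ between panels) of *Vegfa*, *Figf*, *Flt1* and *Nrp1* against embryonic day in the 7 Swiss Webster libraries; points are libraries, and lines join the stages of a kit through the mean of the E14.5 batches. *Figf* reached 54.9 to 121 CPM at E17.5 in the 3 stromal classes, and *Nrp1* was low in acinar-like and ductal-like cells at E17.5 but high in VSM-like cells.

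Stromal clusters within a class differed in their ligands. These values pool the cells of a cluster and have no replicate check. In version 1 the mesenchymal-like clusters led by *Nkx2-5*, a transcription factor of spleen mesenchyme, had 54.0 CPM of *Vegfa* in 176 cells and 26.4 CPM in 123 cells, with *Figf* at 1.86 and 1.76 CPM and *Nrp1* at 39.1 and 21.2 CPM. The other version 1 mesenchymal-like clusters had 3.40 to 10.7 CPM of *Vegfa* and 117 to 530 CPM of *Nrp1*. *Figf* was 133 CPM in a version 1 cluster of 627 cells led by *Atp1b1* and *Sfrp2*. In version 2 the cluster of 339 cells led by *Lum*, *Col4a1* and *Postn*, matrix genes, and by *Acta2*, a smooth muscle actin, was all from E17.5 and had 129 CPM of *Figf*.

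The 3 receptor kinase genes shared a single pattern, with the highest level in endothelial-like cells in 8 of 8 libraries and no overlap with any other class. *Kdr*, the main signalling receptor of Vegfa, had lowest, median and highest levels of 196, 273 and 398 CPM there. *Flt1* had 81.8, 201 and 368 CPM, and *Flt4* had 14.6, 30.6 and 49.5 CPM. In endocrine-like, acinar-like and ductal-like cells the mean levels were 0.0844 to 0.298 CPM for *Kdr*, 0.0193 to 0.0957 CPM for *Flt1* and 0.0211 to 0.0348 CPM for *Flt4*. *Flt4* had 5 to 71 UMIs in the endothelial-like sum of a library, and 4, 3 and 7 UMIs in all endocrine-like, acinar-like and ductal-like sums together.

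In mm10 with GENCODE M21 gene models, *Kdr* lies on the minus strand at chr5:75932827-75978458, *Flt1* on the minus strand at chr5:147561604-147726011 and *Flt4* on the plus strand at chr11:49609263-49652739. The 250 bases before the RefSeq start of each gene are shown because the 3 genes shared the endothelial pattern. The RefSeq and GENCODE starts differ for *Kdr* and *Flt4*, and the *Flt4* window lies inside the GENCODE gene. The windows are from RefSeq on GRCm38.p6, in the direction of the gene, at chr5:75978456-75978705 for *Kdr*, chr5:147726012-147726261 for *Flt1* and chr11:49609429-49609678 for *Flt4*. Capitals mark matches on either strand to CGGAAG or AGGAAG, forms of the site bound by ETS factors, or to the GC box (GGGCGG), with no overlap between the motifs. ETS factors act in endothelial genes, and other forms of their site were not searched.

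Kdr: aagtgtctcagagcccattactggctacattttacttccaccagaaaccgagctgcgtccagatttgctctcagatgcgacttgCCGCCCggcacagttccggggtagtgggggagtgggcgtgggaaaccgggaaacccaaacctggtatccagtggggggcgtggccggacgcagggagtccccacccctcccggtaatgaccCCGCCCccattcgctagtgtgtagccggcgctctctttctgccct

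Flt1: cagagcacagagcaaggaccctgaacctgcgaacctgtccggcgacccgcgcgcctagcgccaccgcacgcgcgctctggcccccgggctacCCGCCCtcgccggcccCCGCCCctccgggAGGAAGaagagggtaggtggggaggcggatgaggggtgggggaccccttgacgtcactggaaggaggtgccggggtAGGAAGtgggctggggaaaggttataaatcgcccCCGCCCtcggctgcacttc

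Flt4: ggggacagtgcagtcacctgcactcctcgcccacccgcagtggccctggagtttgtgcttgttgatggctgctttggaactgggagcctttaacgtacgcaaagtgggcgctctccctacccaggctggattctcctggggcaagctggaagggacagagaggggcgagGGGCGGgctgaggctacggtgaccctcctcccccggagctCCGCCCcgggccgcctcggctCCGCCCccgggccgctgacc

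The *Flt1* window held 2 matches to these ETS forms, at 129 and 53 bases before the start, and the other windows held 0, which does not exclude other forms. The windows held 2, 3 and 3 GC boxes for *Kdr*, *Flt1* and *Flt4*. Of 32851 promoter windows of this length, 39.2% held an ETS match and 32.7% a GC box. A match is a description of the sequence and not of a site in use.

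Endothelial-like cells were tested against mesenchymal-like cells over 7 libraries, and 8 of 9 members were called, where 24.7% of genes were. *Kdr* was higher by 7.07 ± 0.29 SE on the log2 scale (adjusted p = 1.2e-11), *Flt1* by 8.20 ± 0.30 SE (adjusted p = 2.7e-12) and *Flt4* by 8.08 ± 0.48 SE (adjusted p = 9.5e-10), each in 7 of 7 libraries. *Nrp2*, the co-receptor of Flt4, was higher by 3.10 ± 0.26 SE (adjusted p = 6.4e-08, 7 of 7 libraries). *Nrp1* did not pass the test (0.17 ± 0.28 SE, adjusted p = 0.692).

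Lists of genes that act beside these receptors were counted in the same comparison, where 10.7% of all genes were called higher and 14.0% lower. The receptor signalling, vessel ligand and lymphatic lists include genes known from endothelium, such as *Tie1*, *Esm1* and *Lyve1*. Their counts are therefore no independent support for the receptor pattern. Of 12 tested genes of receptor signalling, 10 were called higher and 0 lower, with a median log2 fold change of 6.05 against -0.08 over all genes. *Tie1*, an endothelial receptor kinase, and *Rasip1*, needed for the vessel lumen, were higher by 9.56 ± 0.33 SE and 7.29 ± 0.23 SE (adjusted p = 1.2e-12 and 3.5e-13). *Aplnr*, the apelin receptor, was higher by 10.4 ± 0.25 SE (adjusted p = 1.6e-14). The remaining 2 did not pass the test. Of 8 tested partners of the neuropilins (semaphorins, plexins and the adaptor gene *Gipc1*), 1 was called higher, *Plxnd1*, and 3 lower, *Sema3a*, *Sema3c* and *Sema3d*, with a median of -1.19. Of 8 genes of oxygen sensing, 2 were called higher, *Epas1* and *Egln3*, and of 13 oxygen-responsive genes 3 were called higher and 2 lower, with medians of 0.02 and 0.66.

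Of 8 other vessel ligands tested, 7 were called higher in endothelial-like cells. *Apln*, the apelin gene, was higher by 4.27 ± 0.27 SE (adjusted p = 2.3e-09) and *Esm1*, a secreted proteoglycan of endothelial tip cells, by 9.32 ± 0.46 SE (adjusted p = 1.1e-10). *Pgf*, a further ligand of Flt1, was the 1 called lower, at 2.81 CPM against 48.4 CPM in mesenchymal-like cells (-3.88 ± 0.45 SE, adjusted p = 3.1e-06). Of 4 tested genes for the cleavage of Vegfc and the *Figf* protein, 0 were higher and 1 was lower, the convertase gene *Pcsk5* (-1.49 ± 0.46 SE, adjusted p = 0.0171).

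**Figure D4:**
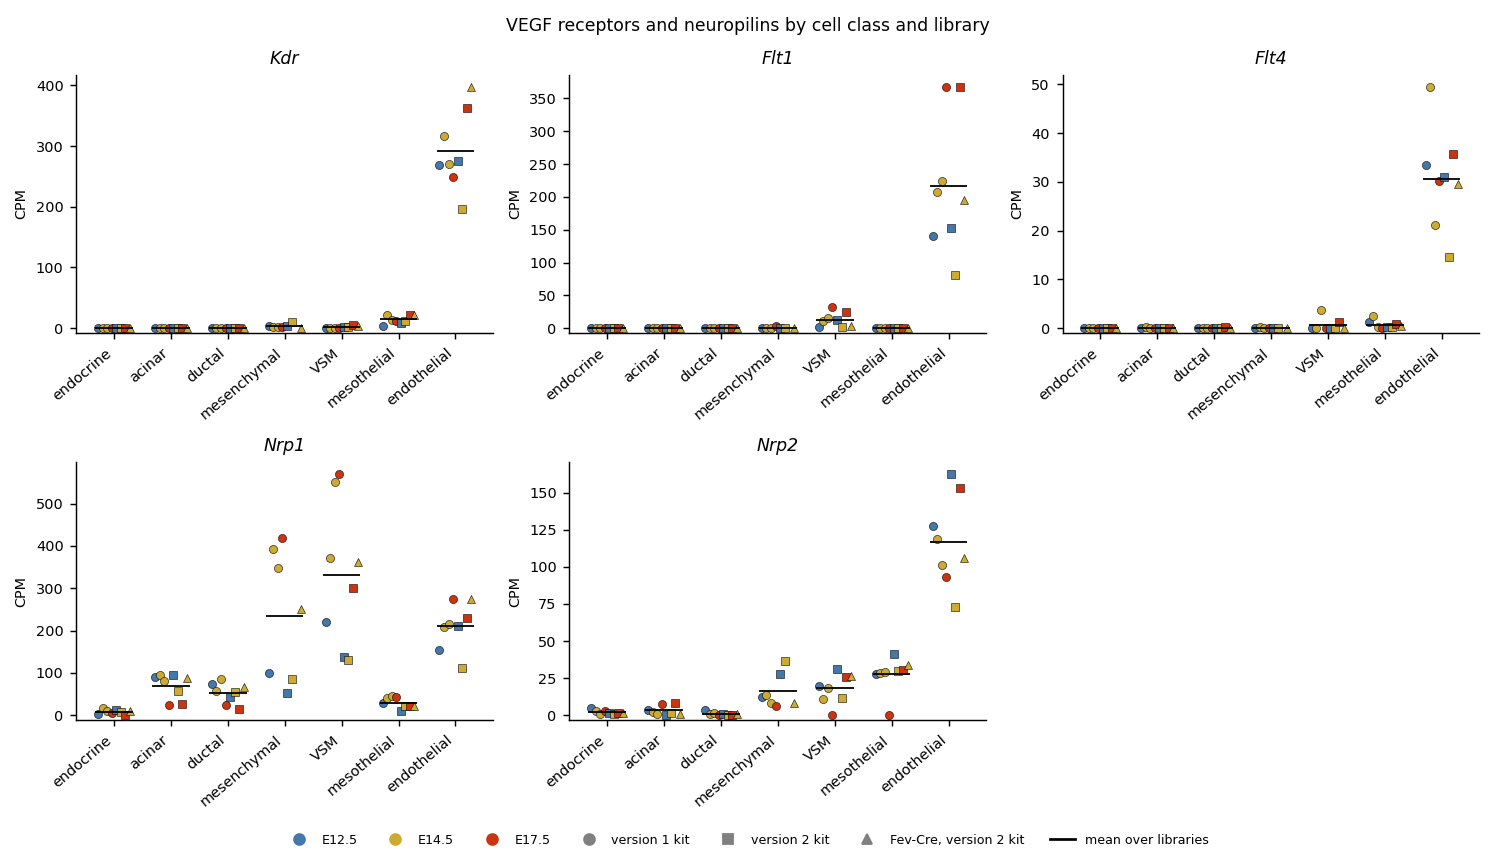
Level of each receptor and neuropilin gene in CPM (linear y axes that differ between panels) in the 7 cell classes; each point is 1 library, its colour the stage and its shape the kit, and the bar is the mean over libraries. *Kdr*, *Flt1*, *Flt4* and *Nrp2* were highest in endothelial-like cells in every library, while *Nrp1* was as high in mesenchymal-like and VSM-like cells.

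The receptors were also read cell by cell. Among all 715 endothelial-like cells at full depth, 559 had a UMI of *Kdr*, 485 of *Flt1* and 392 of both, and 657 had a UMI of at least 1 of the 3 kinases. With each cell thinned to 2000 UMIs in version 1 and 3000 in version 2, *Kdr* was found in 48.3 ± 9.99% of endothelial-like cells (SD, n = 8 libraries; 74.5 ± 13.5% before thinning) and *Flt1* in 37.3 ± 13.3% (59.8 ± 18.0% before). In immune-like cells the thinned shares were 0.338 ± 0.337% and 0.101 ± 0.189%, and in erythroid-like cells 0.0533 ± 0.141% and 0.00761 ± 0.0201% (n = 7). Median depth was 3189 to 8419 UMIs in endothelial-like, 2308 to 8033 in immune-like and 4474 to 12939 in erythroid-like cells. Erythroid-like cells should lack both receptors, whereas *Flt1* is also known from macrophages.

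Of 5 tested lymphatic genes, 4 were called higher in endothelial-like than in mesenchymal-like cells, and *Pdpn* was called lower. In this comparison 24.7% of all genes were called. Over all libraries, 48 endothelial-like cells had a UMI of *Prox1*, a gene of this list, and 667 had none. *Flt4* was found in 24 of the 48 and in 99 of the 667, at 79.8 and 25.6 CPM. Most cells with *Flt4* thus had no UMI of *Prox1*. Cells were not thinned here, and the 48 held 589099 UMIs against 4694671 in the 667, so they were deeper per cell. A cell without a UMI of *Prox1* may still express it. These pooled counts were not tested.

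Outside the endothelium, *Kdr* was found in mesothelial-like cells. The level there was 2.98 CPM at the lowest, 13.4 at the median and 22.1 at the highest, against 0.930, 2.24 and 10.1 CPM in mesenchymal-like cells. It was higher in mesothelial-like cells in 7 of 7 libraries (log2 fold change 2.41 ± 0.51 SE, adjusted p = 0.00407), a call that was lost with finer clusters (1.57, adjusted p = 0.122). In that comparison 5 members were called, where 16.1% of genes were, with *Kdr* and *Nrp2* higher and *Nrp1*, *Vegfc* and *Vegfa* lower. *Flt1* and *Flt4* had too few counts to be tested, with 3 and 11 UMIs in mesothelial-like cells against 347 of *Kdr*.

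*Kdr* in mesothelial-like cells was 2.98 and 8.67 CPM at E12.5, 21.9, 14.2 and 12.6 CPM at E14.5, and 12.2 and 21.4 CPM at E17.5. E17.5 was above E12.5 (1.58 ± 0.47 SE, adjusted p = 0.0255), a call that was lost without version 1 E12.5 (1.26), without version 1 E14.5 batch 2 (1.60) and without version 2 E17.5 (1.09), with finer clusters (1.15) and with no kit term (1.66). A version 2 cluster of 68 mesothelial-like cells led by *Slpi*, *Angptl7*, *Pnoc* and *Krt14*, of which 61 cells came from E17.5, had 96.2 CPM of *Kdr*, 2.05 of *Flt1* and 2.05 of *Flt4*. The other version 2 mesothelial-like clusters had 5.70 to 17.7 CPM of *Kdr*.

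*Flt1* was found at a low level in VSM-like cells. It was 1.63, 11.96 and 32.9 CPM at the lowest, median and highest, below every endothelial-like library. Mesenchymal-like cells had 0 to 3.83 CPM, and the VSM-like value rested on 1 to 4 UMIs in 6 of 8 libraries. With finer clusters the version 2 E17.5 level fell from 25.04 to 5.97 CPM, and those of version 1 E14.5 from 11.3 to 5.65 (batch 1) and from 14.97 to 6.801 CPM (batch 2). The sums held 125 UMIs of *Flt1*, 93 of them in version 2 E17.5, and 27 of *Kdr*. In that library 339 of 363 VSM-like cells lay in the cluster led by *Lum*, *Col4a1*, *Postn* and *Acta2* (27.3 CPM of *Flt1*). The 16 endothelial markers summed to 164 to 464 CPM in VSM-like cells (median 327), with up to 11 of them at 0, and to 6308 to 15180 CPM in endothelial-like cells (median 9666). Their part in the *Flt1* level was not tested.

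Between E12.5 and E17.5, *Flt1* rose in endothelial-like cells. It was 141 and 153 CPM at E12.5, 208, 224 and 81.8 CPM at E14.5, and 367 and 368 CPM at E17.5, and both E17.5 libraries lay above the other 5. The log2 fold change was 1.31 ± 0.33 SE (adjusted p = 0.032), and *Flt1* was the 1 member called among 3.82% of genes. The call was lost without version 1 E12.5 (1.05), version 2 E12.5 (1.81) or version 2 E17.5 (0.93), with DESeq2 (1.32), with no kit term (1.36) and with the Fev-Cre library added (1.33). *Kdr* was 269 and 275 CPM at E12.5 and 249.7 and 363 CPM at E17.5, and it did not pass the test (0.25 ± 0.30 SE, adjusted p = 0.781). *Nrp2* did not pass it either (-0.17 ± 0.31 SE, adjusted p = 0.883). Whether *Flt1* and *Kdr* differed in their change was not tested. *Apln* rose in the same cells (1.53 ± 0.37 SE, adjusted p = 0.026), as did 2 of 10 tested oxygen-responsive genes, *Ankrd37* and *Ndrg1*.

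*Nrp1*, the co-receptor of Kdr and a semaphorin receptor, was found in every library of all 7 classes. Its lowest, median and highest levels were 131, 331 and 570.5 CPM in VSM-like cells, 53.5, 249.97 and 419 CPM in mesenchymal-like cells and 111, 213 and 275 CPM in endothelial-like cells, which all overlapped. Next came acinar-like cells at 23.4, 84.4 and 95.2 CPM and ductal-like cells at 14.8, 56.3 and 84.8 CPM. Mesothelial-like cells lay at 10.2, 25.7 and 44.5 CPM, and endocrine-like cells at 1.96, 8.01 and 17.49 CPM. Endothelial-like and acinar-like ranges did not overlap. With finer clusters the VSM-like level of version 1 E14.5 batch 2 fell from 549.97 to 348 CPM.

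Endocrine-like cells had less *Nrp1* than ductal-like cells in 8 of 8 libraries (-2.69 ± 0.19 SE, adjusted p = 1.2e-07). *Nrp1* and *Nrp2* were the 2 members called there, among 33.6% of genes. Acinar-like cells exceeded ductal-like cells in 6 of 8 libraries by 0.88 ± 0.18 SE (adjusted p = 0.00195), under the 2-fold threshold. Mesenchymal-like cells exceeded ductal-like cells in 7 of 7 (1.74 ± 0.40 SE, adjusted p = 0.0035), and 7 members were called in that comparison, among 31.2% of genes. Mesothelial-like cells lay below mesenchymal-like cells in 7 of 7 (-2.72 ± 0.21 SE, adjusted p = 5.9e-06).

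The change of *Nrp1* with stage went down in ductal-like cells and up in mesenchymal-like cells. Ductal-like cells had 75.0 and 44.1 CPM at E12.5, 57.5, 84.8 and 55.1 CPM at E14.5, and 24.8 and 14.8 CPM at E17.5. Both E17.5 libraries lay below the other 5 (-1.48 ± 0.35 SE, adjusted p = 0.0214), and the call was lost without version 2 E12.5 (-1.67) or version 2 E17.5 (-1.23) and with no kit term (-1.48). Acinar-like cells had 90.4 and 95.2 CPM at E12.5 and 23.4 (3 UMIs in 39 cells) and 27.9 CPM at E17.5, but did not pass the test (-0.98 ± 0.36 SE, adjusted p = 0.0569).

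Mesenchymal-like cells had 101 and 53.5 CPM at E12.5, 392, 347 and 86.7 CPM at E14.5, and 419 CPM at E17.5 (1.98 ± 0.45 SE, adjusted p = 0.00851). This call was lost without version 1 E12.5 (1.11) and with no kit term (2.61). In the version 1 libraries alone the levels went from 101 to 419 CPM. Among the same list of neuropilin partners, 2 of 12 tested were called higher in these cells at E17.5, *Sema3c* and *Sema3d*, where 7.77% of all genes were called. In mesothelial-like cells 5 of 12 were called higher at E17.5, where 18.2% of all genes were called.

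*Nrp2*, the co-receptor of Flt4, was highest in endothelial-like cells at 73.0, 112 and 163 CPM, with no overlap with another class. Mesothelial-like cells followed at 0, 29.4 and 41.2 CPM, VSM-like cells at 0, 19.1 and 31.4 CPM and mesenchymal-like cells at 6.06, 12.1 and 36.3 CPM. The values of 0 were both in version 1 E17.5, where 3 UMIs would have come to 18.3 CPM in mesothelial-like and 32.9 CPM in VSM-like cells. Mesothelial-like cells exceeded mesenchymal-like cells by 1.14 ± 0.26 SE (adjusted p = 0.00642, 5 of 7 libraries), a call lost without version 1 E14.5 batch 2 (0.96) or Fev-Cre (0.90), with DESeq2 (0.9986), with finer clusters (0.86) and with no replicate block (1.02). Mesenchymal-like exceeded ductal-like cells by 4.43 ± 0.43 SE (adjusted p = 4.4e-06, 7 of 7 libraries).

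In the epithelium *Nrp2* was low, with few UMIs in ductal-like and endocrine-like cells. Ductal-like cells had 0 to 3.41 CPM and endocrine-like cells 0.656 to 4.84 CPM, higher in 7 of 8 libraries (1.24 ± 0.42 SE, adjusted p = 0.0206), on 41 and 97 UMIs. This call was lost without version 2 E12.5, version 2 E14.5, version 2 E17.5 or Fev-Cre, with doublets kept (0.099), and with no replicate block. Acinar-like cells had 3.62 and 0.366 CPM at E12.5, 2.43, 1.21 and 1.71 CPM at E14.5, and 7.79 and 8.45 CPM at E17.5. The log2 fold change between E17.5 and E12.5 was 4.55 ± 0.95 SE (adjusted p = 0.00112), and it fell to 1.95 without version 2 E12.5 and to 3.19 without version 2 E17.5, each with loss of the call. The version 1 E17.5 value was 1 UMI in 39 cells.

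**Figure D5:**
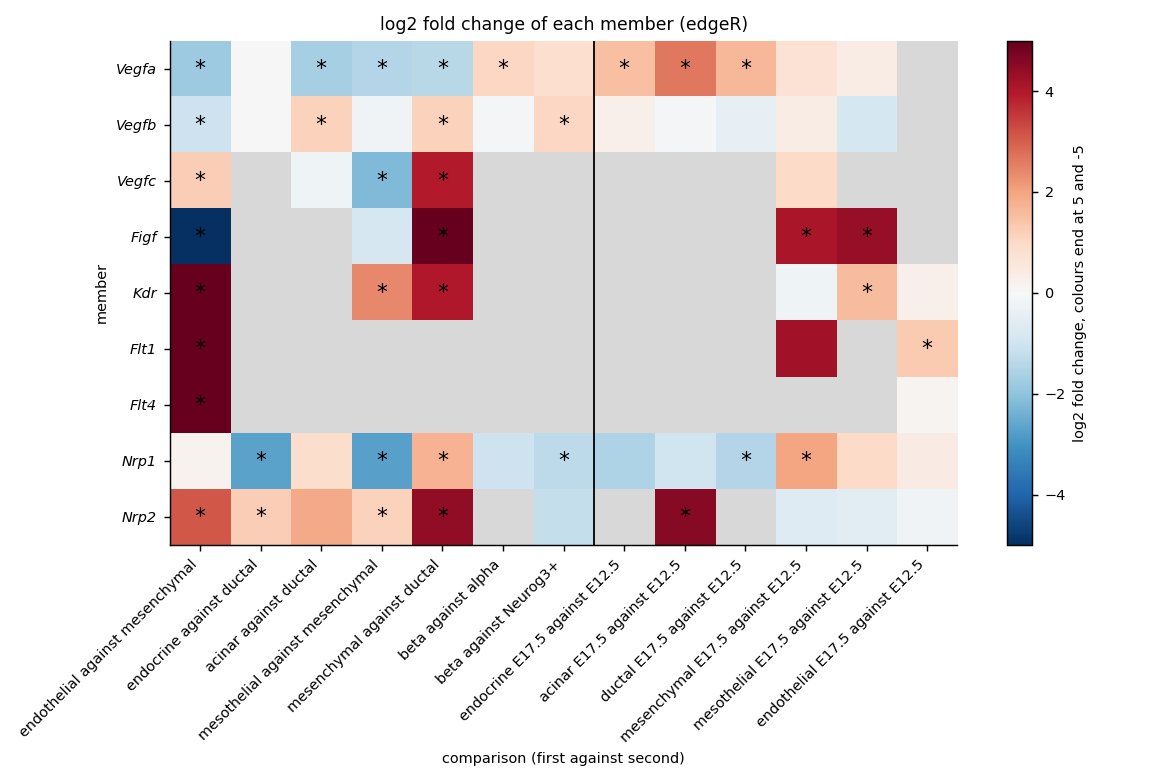
log2 fold change (colour, from -5 to 5) of the 9 members in the 13 edgeR comparisons, with class comparisons left of the line and E17.5 against E12.5 right of it; asterisks mark called members, and grey marks members with too few counts. The receptor kinases and *Figf* reach the ends of the colours in endothelial-like against mesenchymal-like cells, and the *Figf* cell there stands for a level of 0 in endothelial-like cells, not for a measured fold.

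Across 76 class and library sums of 10691 genes, other genes were ranked by the likeness of their levels, as Pearson's r on a log2 scale with a pseudocount of 10 CPM. The sums share libraries and cell classes, so r is a description. *Kdr* was most like *Adgrf5* (r = 0.963), *Cdh5* (0.958) and *Aplnr* (0.958), and *Flt1* most like *Fabp4* (0.968), *Tek* (0.955) and *Plvap* (0.955). *Flt4* was most like *Tie1* (0.987), *She* (0.983) and *Sox7* (0.983). Among members, r was 0.954 for *Kdr* and *Flt4*, 0.948 for *Flt1* and *Flt4* and 0.909 for *Kdr* and *Flt1*.

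*Figf* was most like *Medag* (r = 0.941), *Col6a2* (0.921) and *Mmp23* (0.919), and *Vegfc* most like *Sparcl1* (0.880), *Bgn* (0.860) and *Gm13889* (0.852). *Vegfa* was most like *Spink4* (0.794), *Igsf5* (0.780) and *Ildr1* (0.780). For *Vegfb* the highest value was 0.758 with *Hdlbp*, for *Nrp1* 0.834 with *Cyp20a1* and for *Nrp2* 0.840 with *Pcdh17*. *Vegfa* and *Kdr* had r = -0.34.

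The remaining genes lie, in mm10 and on the strand given, at chr17:46016993-46032369 (*Vegfa*, minus), chr19:6982473-6987651 (*Vegfb*, minus), chr8:54077606-54187096 (*Vegfc*, plus), chrX:164373378-164402650 (*Figf*, plus), chr8:128358604-128503363 (*Nrp1*, plus) and chr1:62703285-62818695 (*Nrp2*, plus). Overlap of reads with neighbouring or antisense genes was not examined.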

How the data were processed

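Per the labels and the study's methods, the authors aligned reads to mm10 with Cell Ranger 1.1 (version 1 kit) or 2.1 (version 2 kit) and deposited UMI counts per gene and cell. The 2 technical wells of version 2 E17.5 were summed, and of the Fev-Cre library only the reporter matrix was used. Cells with at least 200 genes and genes in at least 3 cells were kept. Cells were clustered with scanpy 1.11.5 (Leiden resolution 1, with the members and pathway lists held out), clusters were named from fixed marker lists, and cells with markers of 2 compartments that exclude each other were removed as doublets (3942 cells, with 2502 more left unnamed), with any cluster made mostly of them. The thresholds for naming were set after the clusters were seen. UMIs were summed per library and class of at least 20 cells.

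Sums were tested with edgeR 4.0.16 in R 4.3.3 (TMM, quasi-likelihood, low counts filtered), with library as a block between classes and kit as a term between stages. The stage comparisons used the 7 Swiss Webster libraries and had no term for batch. A library pairs the classes because they came from 1 pool, and deviations of its classes correlated at 0.20 to 0.77. The highest correlation between different libraries was 0.235 to 0.351 per comparison. It exceeded the lowest value within a library in all comparisons but mesothelial-like against mesenchymal-like. Genes were named as all members plus the leading called genes of lists of receptor signalling, vessel ligands, ligand maturation, neuropilin partners, oxygen sensing, oxygen response and lymphatic endothelium. The members and lists were chosen with earlier results of these data known. Scripts were tested on simulated data. Alternatives were DESeq2 1.42.0, no filter, doublets kept, Leiden resolution 2, no block, no kit term, the Fev-Cre library added, and each library left out.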

Additional observations from a re-analysis of the deposited data

Results flagged for a closer look

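The *Nrp1* levels of VSM-like cells and of acinar-like and ductal-like cells differed between stages in opposite directions. From E12.5 to E17.5 the mean log2 change over both kits was 1.25 in VSM-like cells, -1.86 in acinar-like cells and -1.58 in ductal-like cells, in the same direction in each kit. The differences were 3.12 against acinar-like and 2.84 against ductal-like cells, and they were not tested. In version 2 the VSM-like cells of E12.5 lay in a cluster led by *Fam162b* and *Ebf1* (*Nrp1* 136 CPM) and most of those of E17.5 in one led by *Lum*, *Col4a1* and *Postn* (326 CPM). VSM-like cells were not fitted by stage, *Nrp1* did not pass the stage test in acinar-like cells, and the version 1 E17.5 acinar-like value was 3 UMIs.

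Classes outside the comparisons also held members. *Vegfb* was found in immune-like cells at a mean of 17.4 CPM (SD 8.27, 8 libraries, 387 UMIs). *Nrp1* was found there at 130.2 CPM (SD 63.9, 8 libraries, 4188 UMIs) and in neural crest-like cells at 113 CPM (SD 49.9, 6 libraries, 665 UMIs). No group of the same stage, kit and strain held 4 libraries, so single samples were not tested for standing apart.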

How the results depend on the processing

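Between classes, fits with no replicate block left 5 of 8 members called in endothelial-like against mesenchymal-like cells, 1 of 2 in endocrine-like against ductal-like, 3 of 5 in mesothelial-like against mesenchymal-like, 0 of 1 in beta-like against alpha-like and 1 of 2 in beta-like against Neurog3+-like cells. The block changed no other count by over 1.5 times. Keeping doublets left 1 in endocrine-like against ductal-like cells. In beta-like against Neurog3+-like cells DESeq2 left 1 and Leiden resolution 2 left 0. Between stages, no kit term left 0 in endocrine-like, 1 in acinar-like, 0 in ductal-like, 1 in mesenchymal-like, 1 in mesothelial-like and 0 in endothelial-like cells. Leiden resolution 2 left 1 in acinar-like and 1 in mesothelial-like cells, no filter gave 4 in acinar-like cells, and DESeq2 or the Fev-Cre library added left 0 in endothelial-like cells. The cause was not tested.

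Leaving out each library gave 6 to 8, 1 to 2, 2 to 3, 4 to 6, 6 to 7, 0 to 1 and 0 to 3 members called in the class comparisons (endothelial-like against mesenchymal-like, endocrine-like and acinar-like against ductal-like, mesothelial-like against mesenchymal-like, mesenchymal-like against ductal-like, beta-like against alpha-like and against Neurog3+-like). It gave 0 to 1, 0 to 3, 0 to 2, 1 to 3, 1 to 3 and 0 to 1 between stages (endocrine-like, acinar-like, ductal-like, mesenchymal-like, mesothelial-like and endothelial-like). Without version 1 E17.5 the mesenchymal-like stage comparison could not be fitted.

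Direction turned only for members that were not called. *Vegfa* in endocrine-like against ductal-like cells turned to 0.098 with DESeq2, 0.059 with no filter, 0.074 with doublets kept and 0.033 at Leiden resolution 2, and lay between -0.038 and 0.028 with 1 library left out, above 0 without version 1 E17.5, version 2 E12.5 or version 2 E17.5. *Nrp1* in endothelial-like against mesenchymal-like cells turned to -0.097 with no block, and lay between -0.21 (without version 2 E12.5) and 0.35 with 1 library left out. Between stages in endothelial-like cells, *Kdr* lay between -0.21 (without version 2 E17.5) and 0.57, and *Nrp2* between -0.67 and 0.094 (without version 1 E17.5). Depth limited the small sums most, where 3 UMIs came to as much as 33.8 CPM in VSM-like and 29.7 CPM in endothelial-like cells.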

Other observations

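In a version 2 mesenchymal-like cluster of 518 cells led by *Mab21l2*, 471 of them from E12.5, *Nrp1* was 7.47 CPM and *Nrp2* 51.3 CPM. The other version 2 mesenchymal-like clusters had 58.0 to 81.7 CPM of *Nrp1* and 5.47 to 38.5 CPM of *Nrp2*. Version 2 mesothelial-like clusters had 6.04 to 25.4 CPM of *Nrp1* and 9.65 to 71.6 CPM of *Nrp2*, so the *Mab21l2* cluster lay within their range. A version 1 mesothelial-like cluster of 38 cells, all from E17.5, had 99.2 CPM of *Figf*. These pooled values have no replicate check.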
